A study of Homo sapiens with 6 samples.

Results

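In the glioblastoma line A172, an established human cell line, 4 of the 20514 rows of a table of RNA-seq read counts were followed through 2 knockdowns: those whose lists of UCSC hg19 transcripts begin with uc002mxh.1, uc003vii.1, uc002gnj.3 and uc003grx.2. A row holds the transcripts that were counted together as a gene. These rows were chosen by their measured change, namely a level over 13-fold higher with an siRNA against ADAR1 than with a control siRNA, and 1.6- to 2.3-fold lower again when an siRNA against Staufen1 was added. The size of the rise and of the return was therefore fixed by the choice, and so was the remaining gap, which is their sum on the log2 scale. These values are given as a description, with standard errors and without p-values. The 4 rows were among the 14711 with enough reads to be tested.

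The 3 groups were siControl, siADAR1, and siADAR1 and siStaufen1 together (called the combined knockdown), with 2 libraries each, a and b. All were A172 cells. The treatment text attached to every library names a transfection of HA-STAU1 plasmid on the following day and no Staufen1 siRNA, so whether that plasmid was present in all groups is not known, and a group with the Staufen1 siRNA alone was not analysed here. The labels do not say whether a and b were separate cultures, so the spread between them can be technical. In RNA from whole cultures, a change in the cells that carry a transcript and a change in the amount per cell cannot be told apart.

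ADAR1 converts adenosine to inosine in double-stranded RNA. Staufen1 binds double-stranded stretches of mRNA, often in the 3′ untranslated region, and can recruit the decay factor UPF1, a route called Staufen-mediated mRNA decay. The series' title names inhibition of this route by ADAR1 as its subject. A loss of Staufen1 is best known for raising the level of its target mRNAs. The rows described here were chosen because they were lower when the Staufen1 siRNA was added. Whether any of them is a target of Staufen1 was not tested.

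The files list only transcript IDs, and the gene tables at hand, of assembly GRCh38, matched none of the 4 by ID. No gene symbol, position or sequence is therefore given for them. For the same reason the levels of ADAR and STAU1, and the markers of the cell line, were not analysed here. The row of uc002mxh.1 holds 2 transcripts, uc002mxh.1 and uc010xng.1. That of uc002gnj.3 holds 4, namely uc002gnj.3, uc002gnk.3, uc010vvi.2 and uc010vvj.2. That of uc003grx.2 holds 6 and that of uc003vii.1 holds 16. The median over all rows of the file is 2 transcripts, and 0.600% of rows hold 16 or more, so the rows differed widely in how many transcripts were counted together. No transcript was listed in more than 1 of the 4 rows (28 distinct IDs in all).

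Library totals ran from 20291057 to 29508632 reads. Levels are given in CPM (reads per 1000000 library reads) scaled with TMM factors, which put the bulk of genes at the same level in every library. They are not divided by transcript length, so a row is compared with itself across libraries and not with another row's level. Replicates of a group differed beyond sampling noise, most in siControl, with a chi-square per degree of freedom of 9.39 against 4.06 in siADAR1 and 3.47 in the combined knockdown.

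All 4 rows were present at low but countable levels in control cells. In siControl, uc002mxh.1 had 91 reads in library a (exact 95% Poisson interval 73.3 to 111.7, for counting error only) and 138 in library b (115.9 to 163.0). The row uc003vii.1 had 175 and 267 reads, uc002gnj.3 had 73 and 94, and uc003grx.2, the row with the fewest reads, had 47 (34.5 to 62.5) and 52 (38.8 to 68.2). With siADAR1 the same rows held 950 to 5433 reads, so the precision of every fold against siControl is set by the control libraries. Summed over the 4 rows, 386 and 551 reads in siControl stood against 9465 and 11360 in siADAR1 and 4820 and 5484 in the combined knockdown.

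The level of uc002mxh.1 was 5.06 and 6.19 CPM in siControl a and b, 90.8 and 89.5 CPM in siADAR1, and 40.3 and 39.2 CPM in the combined knockdown. The 3 groups did not overlap, and as a ratio of b to a the replicates lay closest together in the knockdown groups. The means were 5.62 ± 0.80, 90.1 ± 0.96 and 39.8 ± 0.76 CPM (SD, n = 2 each). On the log2 scale this row changed by 3.99 (SE 0.095) with siADAR1 against siControl, -1.18 (SE 0.073) with the combined knockdown against siADAR1, and 2.81 (SE 0.098) with the combined knockdown against siControl. In folds, it was 15.9-fold higher, then 2.27-fold lower, and stayed 7.01-fold above siControl, the largest rise, the largest return and the smallest remaining gap of the 4.

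For uc003vii.1 the siControl libraries stood at 9.72 and 12.0 CPM, the siADAR1 libraries at 156.9 and 167.8 CPM, and the combined knockdown libraries at 99.1 and 100.1 CPM. Again no group overlapped another, and the siADAR1 libraries were further apart than those of the other rows. Means were 10.9 ± 1.6, 162 ± 7.8 and 99.6 ± 0.65 CPM (SD, n = 2 each). The log2 fold changes were 3.89 (SE 0.091) for the rise, -0.70 (SE 0.073) for the return and 3.19 (SE 0.091) for the gap. This row was thus 14.9-fold higher, then 1.63-fold lower, and remained 9.12-fold above siControl, the smallest return and the largest gap.

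The row uc002gnj.3 had 4.06 and 4.22 CPM in siControl, 59.3 and 60.2 CPM in siADAR1, and 34.7 and 33.8 CPM in the combined knockdown. Its siControl libraries were the closest together of the 4 rows, and its groups did not overlap. Group means were 4.14 ± 0.11, 59.8 ± 0.64 and 34.3 ± 0.58 CPM (SD, n = 2 each). Rise, return and gap on the log2 scale were 3.85 (SE 0.090), -0.80 (SE 0.066) and 3.05 (SE 0.093), or 14.4-fold higher, 1.74-fold lower and 8.26-fold above siControl.

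In siControl, uc003grx.2 stood at 2.61 and 2.33 CPM, against 34.3 and 33.4 CPM in siADAR1 and 18.6 and 19.4 CPM in the combined knockdown. Here too the groups were apart, and replicate a was the higher control library, unlike in the other 3 rows. The means were 2.47 ± 0.20, 33.8 ± 0.58 and 19.0 ± 0.58 CPM (SD, n = 2 each). The rise was 3.78 (SE 0.11), the return -0.83 (SE 0.080) and the gap 2.95 (SE 0.12) on the log2 scale, which is 13.7-fold higher, 1.78-fold lower and 7.72-fold above siControl.

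**Figure D1:**
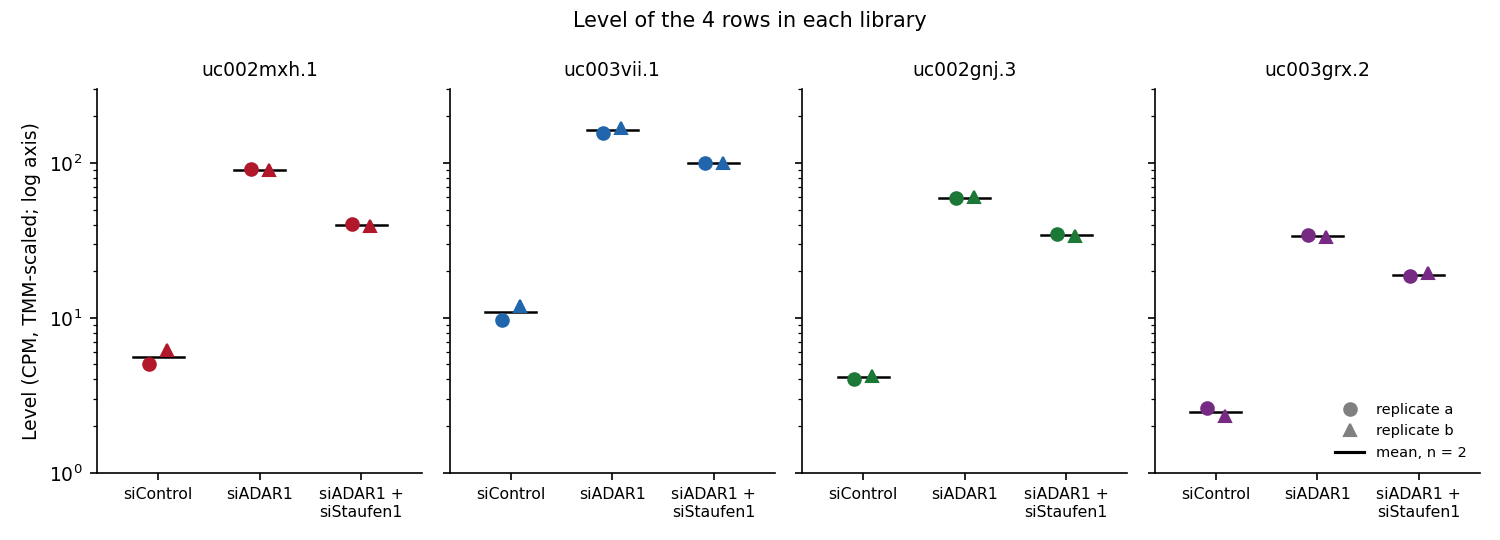
Level of each of the 4 rows (CPM, TMM-scaled, logarithmic axis) in the 2 libraries of siControl, siADAR1 and the combined knockdown (siADAR1 + siStaufen1); circles are replicate a, triangles replicate b, and bars the mean of n = 2. In every row the combined knockdown lies between the other groups without overlap, from 39.8 CPM between 5.62 and 90.1 CPM for uc002mxh.1 to 19.0 CPM between 2.47 and 33.8 CPM for uc003grx.2.

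Each of these patterns is set beside the whole table. With siADAR1 against siControl, all 4 rows were called higher in the quasi-likelihood fit of edgeR (Benjamini-Hochberg threshold 0.05), as were 32.9% of the rows tested, and in all 4 both siADAR1 libraries lay above both siControl libraries, as in 42.3% of rows. For the combined knockdown against siADAR1, the 4 rows were called lower, as were 21.5% of rows, and had no overlap in that direction, as in 37.4%. Against siControl, the 4 rows were still called higher in the combined knockdown, as were 28.7% of rows, again with no overlap, as in 39.8%. The background depends on scaling: TMM gave 4847 rows higher and 4365 lower for siADAR1, and library totals 7095 and 2406. For the combined knockdown the counts were 4224 and 3798 against siControl (5741 and 2349 under library totals), and 3196 and 3170 against siADAR1 (2200 and 4411). The 4 rows kept their calls under both scalings. The rule used these libraries, so nothing is read from these counts. The median log2 fold change was 3.87 over the 4 rows and 0.04 over all rows for the rise, -0.82 and 0.0011 for the return, and 2.997 and 0.02 for the gap.

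The rise was then taken library by library. Over the 4 pairs of a siADAR1 with a siControl library, uc002mxh.1 was 14.5- to 18.0-fold higher, and uc003vii.1 13.1- to 17.3-fold. The same ratio was 14.1- to 14.8-fold for uc002gnj.3 and 12.8- to 14.7-fold for uc003grx.2. These ranges overlap between neighbours in the order of rises (uc002mxh.1, uc003vii.1, uc002gnj.3, uc003grx.2), whose log2 values from 3.78 to 3.99 have standard errors of 0.090 to 0.11. The ranges of the first and the last row, uc002mxh.1 and uc003grx.2, overlap as well. The order of the 4 rises is therefore not resolved.

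Much of the width of those ranges came from the control libraries. Library b stood 1.22 times above library a for uc002mxh.1 and 1.23 times for uc003vii.1, against 1.04 times for uc002gnj.3 and 0.893 times for uc003grx.2. In siADAR1 the same ratio of b to a was 0.976 to 1.07, and in the combined knockdown 0.973 to 1.04.

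The return was more even between libraries than the rise. Over the 4 pairs of a siADAR1 with a combined knockdown library, it was 2.22- to 2.32-fold for uc002mxh.1, 1.72- to 1.84-fold for uc003grx.2, 1.71- to 1.78-fold for uc002gnj.3 and 1.57- to 1.69-fold for uc003vii.1. Measured from the siADAR1 mean, uc002mxh.1 was 2.24-fold lower in combined knockdown library a and 2.298-fold lower in b. The corresponding values were 1.82- and 1.74-fold for uc003grx.2, 1.72- and 1.77-fold for uc002gnj.3, and 1.64- and 1.62-fold for uc003vii.1. Both libraries of uc002mxh.1 thus lay beyond those of the other 3 rows, and both of uc003vii.1 lay below them, while uc002gnj.3 and uc003grx.2 overlapped. These values hold the siADAR1 mean fixed. In the fit, the log2 returns were -0.70 (SE 0.073) for uc003vii.1 and -0.80 (SE 0.066) for uc002gnj.3. The lower end of this order is therefore not resolved by the standard errors.

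**Figure D2:**
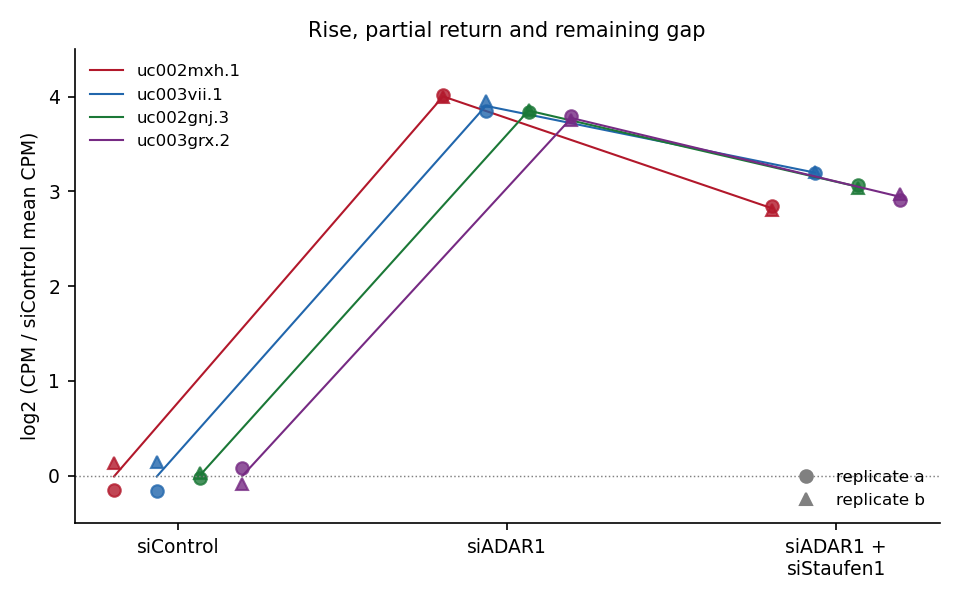
Log2 ratio of each library to the siControl mean of the same row, for the 4 rows (colours; circles replicate a, triangles replicate b, lines through the means of n = 2). All 4 rows reach a log2 ratio of 3.76 to 4.01 in the siADAR1 libraries and come down to 2.80 to 3.21 in the combined knockdown, where uc002mxh.1 has the lowest values.

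The remaining gap kept the reverse order of the return at its ends. Against the siControl mean, the combined knockdown libraries a and b stood 9.14- and 9.22-fold higher for uc003vii.1, 8.38- and 8.18-fold for uc002gnj.3, 7.52- and 7.85-fold for uc003grx.2, and 7.17- and 6.97-fold for uc002mxh.1. These values share the siControl mean of their row and so leave out its error. Over single pairs of libraries the gap was 8.28- to 10.3-fold, 8.03- to 8.54-fold, 7.12- to 8.33-fold and 6.34- to 7.97-fold in the same order, and each of these ranges overlaps that of its neighbour. No single pair of libraries put any of the 4 rows less than 6.34-fold above siControl.

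How partial the return was depends on the scale on which it is expressed. On the log2 scale, the return as a share of the rise was 29.6% for uc002mxh.1, 22.0% for uc003grx.2, 20.9% for uc002gnj.3 and 18.1% for uc003vii.1. Computed for combined knockdown libraries a and b separately, it was 29.0% and 29.996%, 22.9% and 21.2%, 20.4% and 21.3%, and 18.2% and 17.9% in that order. On the linear scale, uc002mxh.1 gained 84.5 CPM with siADAR1, of which 59.6% ± 0.90 (SD, n = 2 combined knockdown libraries) was no longer present in the combined knockdown. The row uc003grx.2 gained 31.4 CPM and lost 47.3% ± 1.9 of it, uc002gnj.3 gained 55.6 CPM and lost 45.9% ± 1.0, and uc003vii.1 gained 151.5 CPM and lost 41.4% ± 0.43 (SD, n = 2 each). The shares per library and these SDs hold the siControl and siADAR1 means fixed, so they leave out the spread of those libraries. For uc003vii.1, whose siADAR1 libraries stood at 156.9 and 167.8 CPM, the SD of 0.43 is therefore too small as an error of the share. In absolute terms, the part of the gain that remained was 34.1 CPM for uc002mxh.1, 88.8 CPM for uc003vii.1, 30.1 CPM for uc002gnj.3 and 16.5 CPM for uc003grx.2. These CPM amounts are not divided by transcript length, so they are not to be compared between rows. The order of the rows was the same on both scales, and the replicate ranges of uc002gnj.3 and uc003grx.2 overlapped at one end on each.

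The ratio of the reads of any 2 rows within a library does not depend on how libraries are scaled, and its change between groups does not depend on transcript length. The reads of uc002mxh.1 were 0.520 and 0.517 of those of uc003vii.1 in siControl a and b, 0.579 and 0.533 in siADAR1, and 0.406 and 0.392 in the combined knockdown. Between siADAR1 and the combined knockdown the mean ratio changed by a factor of 0.718, with no overlap of libraries. Against uc002gnj.3 the factor was 0.769 and against uc003grx.2 it was 0.786, both without overlap. Between siControl and siADAR1, the mean ratios of uc002mxh.1 to the other 3 rows changed by factors of 1.07 to 1.16, and the libraries overlapped in the ratio to uc003grx.2. The larger return of uc002mxh.1 between these groups thus did not depend on how libraries were scaled. These ratios restate returns that the rule used, so they are no separate evidence for the difference.

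Among the other 3 rows, such ratios moved less. The ratio of uc003vii.1 to uc002gnj.3 changed by a factor of 1.07 and that to uc003grx.2 by 1.09 when the Staufen1 siRNA was added, each without overlap between siADAR1 and combined knockdown libraries. The ratio of uc002gnj.3 to uc003grx.2 was 1.73 and 1.80 in siADAR1 and 1.86 and 1.74 in the combined knockdown, a factor of 1.02 with overlap. The rule held the rise and the return of these rows within limits, so ratios that move little follow in part from the choice.

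**Figure D3:**
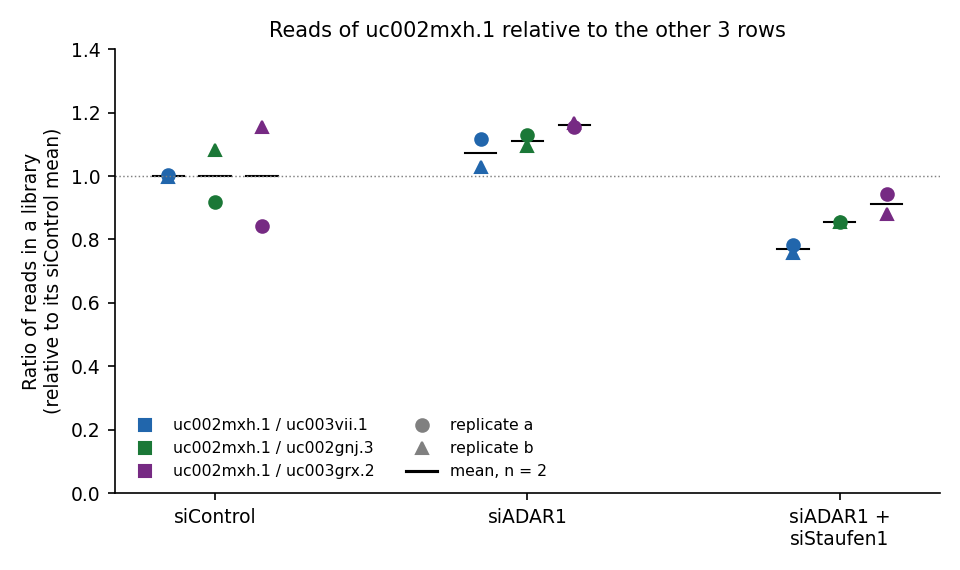
Reads of uc002mxh.1 divided by the reads of uc003vii.1, uc002gnj.3 and uc003grx.2 in the same library, each relative to the mean ratio in siControl (circles replicate a, triangles replicate b, bars the mean of n = 2; the axis starts at 0). All 3 ratios are lower in the combined knockdown than in siADAR1, by factors of 0.718 to 0.786, and the siControl libraries spread most in the ratio to uc003grx.2, which has the fewest control reads.

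The rows just inside and just outside the limits of the rule are given next for rows above an abundance limit that was added after seeing the data. It is an average over the 6 libraries, and uc002mxh.1, uc002gnj.3 and uc003grx.2, with siControl means of 2.47 to 5.62 CPM, pass it only through the knockdown libraries. Of 9008 rows whose average log2 CPM was 3 or more, 7 were over 13-fold higher with siADAR1. The 4 rows ranked from the third to the sixth of these, with rank 3 for uc002mxh.1 and rank 6 for uc003grx.2. Of the other 3 of those 7 rows, 1 was 13.01-fold higher and came down 3.71-fold, 1 was 28.5-fold higher and came down 6.14-fold, and 1 was 26.0-fold higher and did not come down, with a log2 change of 0.25. On the other side of the limit, the highest rises under 13-fold with a return inside the limits were 9.94-fold (return 2.26-fold) and 8.42-fold (return 1.92-fold). Nearer to the limit stood rows that were 12.9-fold higher but had log2 changes of 0.38 and -0.16 when the Staufen1 siRNA was added.

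In a wider set, a return of this share of the rise lay in the middle of the range. Besides the 4, 158 rows whose average log2 CPM was 3 or more were at least 4-fold higher with siADAR1. Their return on the log2 scale had a median of 24.3% of the rise (quartiles 7.25% and 37.4%). By this share, 66 of them came back less than uc003vii.1 and 64 more than uc002mxh.1. Of these 158 rows, 105 were called lower with the combined knockdown than with siADAR1, and 152 were still called higher than siControl. At least 8-fold rises numbered 22 besides the 4, of which 9 came back by a smaller share and 11 by a larger share than the 4 rows. Their return had a median of 27.6% of the rise (quartiles -0.23% and 45.4%). Most of these stronger rises thus lay outside the range of the 4 rows, on either side. Of the 22, 15 were called lower with the combined knockdown than with siADAR1, and all 22 were still called higher than siControl. These rows too were picked on the rise, and the comparisons share libraries, so the counts describe the table and test nothing.

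**Figure D4:**
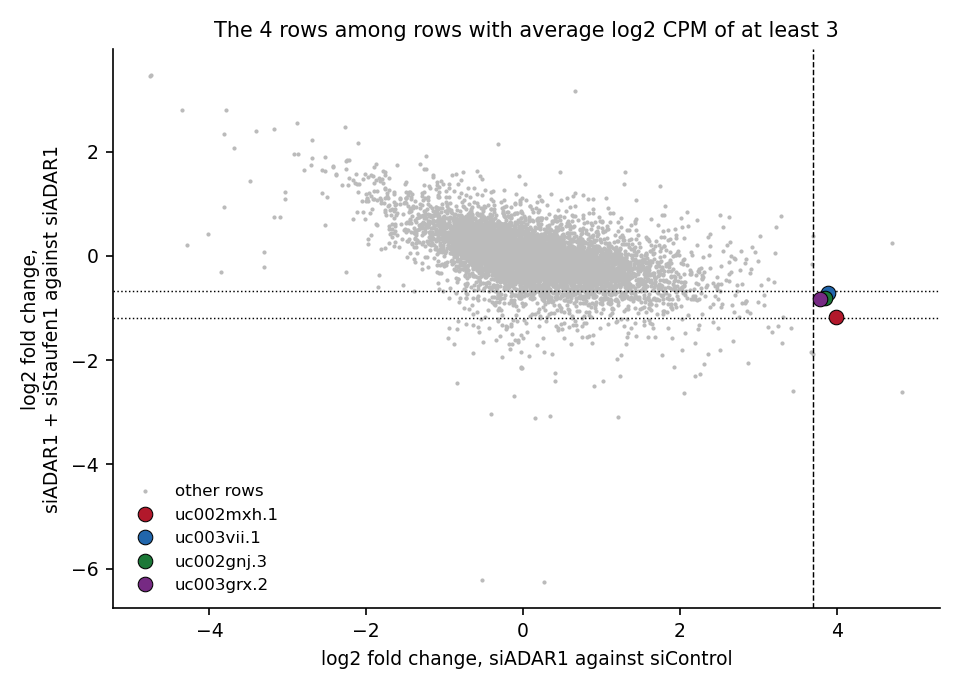
Log2 fold change with siADAR1 against siControl (horizontal) and with the combined knockdown against siADAR1 (vertical) for the 9008 rows at an average log2 CPM of 3 or more; coloured points are the 4 rows, the dashed line is 13-fold and the dotted lines are 1.6- and 2.3-fold lower. The 4 rows lie between 3.78 and 3.99 horizontally and between -1.18 and -0.70 vertically, and both axes share the siADAR1 libraries.

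With the limits on size alone, 10 rows of the table qualify. The other 6 had an average log2 CPM of at most 2.02 and at most 7 reads on average in siControl, so their folds rest on few control reads. The best covered of them, uc003ywc.1, is a row of 4 transcripts. The 4 rows themselves were left out of a search for the nearest profile over the 6 libraries. Among the 11969 other rows at an average log2 CPM of 1 or more, uc003ywc.1 was nearest to each of the 4. Nearness was the Euclidean distance of log2 CPM after subtracting the siControl mean. It was 0.469 to uc002mxh.1, 0.542 to uc003vii.1, 0.608 to uc002gnj.3 and 0.776 to uc003grx.2. This log2 CPM was computed with a prior count of 2 reads, which shrinks a rise that starts from few control reads, as in uc003ywc.1. Distances among the 4 rows themselves were 0.274, for uc002gnj.3 and uc003grx.2, to 0.582, for uc003vii.1 and uc003grx.2. Between uc002gnj.3 and uc003vii.1 the distance was 0.320, and between uc002gnj.3 and uc002mxh.1 it was 0.417. As computed, each of the 4 rows thus had another of the 4 nearer to it than uc003ywc.1. The distances to uc003ywc.1 depend on the prior count, so nothing is read from that order. Its rise and return also lie inside the limits of the rule, so its nearness follows in part from the choice. The row uc003ywc.1 had 5 and 9 reads in siControl, 221 and 218 in siADAR1, and 75 and 102 in the combined knockdown. Its log2 fold changes were 4.38 for the rise, -1.15 for the return and 3.23 for the gap, with a return share of 26.3%. That share lies inside the range of the 4 rows, which the same limits make likely.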

How the data were processed

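The authors deposited estimated counts of reads per row (RSEM expected counts), and all values were whole numbers, so rounding changed none. Per the submitters' processing notes, RSEM 1.2.3, edgeR and build hg19 were used, with no role given. Per the file headers, rows are UCSC hg19 transcripts. Not given in the sources used here: aligner and strand setting. Therefore reads of overlapping or near-identical genes are uncertain.

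All 6 columns were matched by the library codes in the labels. Rows were kept with filterByExpr (10 reads, total 15) and scaled by TMM. One edgeR quasi-likelihood model (R 4.3.3, edgeR 4.0.16) was fitted to the 6 libraries with 3 residual degrees of freedom, and p-values were adjusted by Benjamini-Hochberg over 14711 rows. Standard errors come from the F statistic. The script was tested on simulated data. Plots used Python 3.11.15 and matplotlib 3.10.9. Alternatives were DESeq2 1.42.0 and its size factors, library totals, no filter, the replicate block, only the 4 libraries compared, and each library left out. Rows named are the 4 and, for each, the nearest row outside the 4. The rows, limits and rule were chosen with earlier results of these data known. Depth of 20291057 to 29508632 reads limits counting error only. The planned marker and target gene checks need gene symbols and were not run.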

Additional observations from a re-analysis of the deposited data

How the results depend on the processing

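Over the alternatives tried, 144 of 144 recomputed log2 fold changes of the 4 rows kept their direction and side of the 0.05 threshold in the edgeR or DESeq2 fit, which says little since the rows were picked for large changes. Scaling to library totals shifted the median of all rows by 0.30 for siADAR1 against siControl, by -0.11 for the combined knockdown against siADAR1 and by 0.18 against siControl. The 4 rises were then 4.08 to 4.29, and rows called lower than siControl numbered 2406 for siADAR1 and 2349 for the combined knockdown, in place of 4365 and 3798, since the shift moves rows across 0. Under library totals, the return shares were 30.2% for uc002mxh.1, 19.6% for uc003vii.1, 22.1% for uc002gnj.3 and 23.2% for uc003grx.2. Of 44 recomputed return shares, 34 stayed within the SD between the combined knockdown libraries of the main value, and for uc003vii.1 5 of 11 did. That SD leaves out the spread of the siControl and siADAR1 libraries and is smallest for uc003vii.1, at 0.24. The 5 of 11 therefore does not show that this row was less stable than the others. Leaving out each library in turn, which assumes that a group left with 1 library varies as much as the rest, gave return shares of 28.7% to 30.8% for uc002mxh.1, with siControl b and a left out at the ends. It gave 17.1% to 19.1% for uc003vii.1, with siADAR1 b and a left out at the ends. Of 44 combinations of row and alternative, 41 stayed inside the limits that define the rows. The exceptions were uc002mxh.1 under library totals (2.46-fold lower), uc003grx.2 without siControl b (12.9-fold higher) and uc003vii.1 without siADAR1 b (1.58-fold lower). The limits held 11 rows by ratios of mean CPM in place of 10, and 4 where the average log2 CPM was 3 or more, a limit added after seeing the data. With the replicate block, the rise of uc002mxh.1 was 3.99 and no call of the 4 rows changed, and 4858 rows were called higher with siADAR1. Deviations of libraries of the same letter correlated by 0.051, 0.021 and 0.0060 across rows, so the letters were not used to pair libraries; whether they mark a shared culture or day is not stated in the labels. Control reads of 47 to 267 limit every fold against siControl.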
